A study of Mus musculus with 10 samples.

Results

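Circular RNAs of the Wdr78 locus were followed in the developing mouse retina. A circular RNA (circRNA) forms when a splice donor is joined back to a splice acceptor that lies upstream of it, so the molecule is closed, has no poly(A) tail and is recognised by reads across this back-splice junction. Wdr78, also named Dnai4, encodes an intermediate chain of axonemal dynein, the motor complex that bends motile cilia and flagella. Photoreceptors carry a modified, non-motile cilium, the connecting cilium, between their inner and outer segments. The members were those circRNAs of the deposited table that lie on the minus strand of chromosome 4 with both ends inside a window of 78 kb over Wdr78 (mm9), which gave 17 of 9029 circRNAs. Of the 17, 16 were above 0 in at least 1 library, against 6365 of all 9029. The locus was chosen by its measured counts over the ages, so its levels are described here and not tested. No circRNA of the plus strand lay inside the window, and none had only 1 end inside it. The lowest member began 1.836 kb inside the edge of the window and the highest ended 11.991 kb inside it, whereas the nearest circRNA outside, on the plus strand, lay 15.57 kb away.

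Retinae of C57BL/6 mice were taken at embryonic day 18.5 (E18.5) and at postnatal days 1, 7, 14 and 30 (P1, P7, P14 and P30), with 2 libraries per age and 10 in all. Total RNA was depleted of ribosomal RNA before sequencing, and the labels name no treatment or mutation. Nothing in the labels says that the libraries of an age came from separate animals, so the errors measure only the spread between them. In whole retina, fewer cells that make a circRNA and less of it per cell cannot be told apart. The libraries held 6606.5 to 28658 circRNA counts, and the largest totals and the most circRNAs listed, 2800 and 2784, were those of P30. Levels are given in CPM, the counts of a circRNA per 1000000 circRNA counts of its library. Values above 0 started at 2 counts, which is 208 to 303 CPM in the libraries up to P7, 170 and 117 CPM in those of P14, and 71.2 and 69.8 CPM in those of P30, so a rare circRNA could be listed at P30 and not before. Gene names are not paired with the circRNAs in the table, and the whole list of axonemal dynein genes chosen for comparison was therefore not used.

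The exons of each member were read from its length, because the table gives mm9 positions and the annotation at hand is GENCODE M21 on GRCm38 (Wdr78 at chr4:103038065-103114555, minus strand). Each genomic span was compared with the spans of all 321 exon pairs of the annotated transcripts, with no position converted. For 15 of the 17 circRNAs the span equalled that of exactly 1 exon pair, and for none under the other convention for the start position. The 9 ends that several matched circRNAs shared fell at 1 and the same exon edge each time. Exons are numbered along Wdr78-203, a transcript of 17 exons, in which exons 2 to 16 are wholly coding. A circRNA named "exon 8 to 13" has its acceptor at the start of exon 8 and its donor at the end of exon 13.

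The back-splice junctions are shown for the pair of circRNAs with the most counts and for 2 rarer ones that share an acceptor or a donor with them. Each has 40 bases to either side of the junction, from Wdr78-203 of GENCODE M21 on GRCm38, minus strand, 5′ to 3′. Lower case marks the end of the donor exon and capitals the start of the acceptor exon, which lies upstream in the gene. The first 3 have the same capitals, the start of exon 8, and differ in the exon that is joined to it. The second and the fourth have the same lower-case run, the end of exon 16.
exon 13 to exon 8: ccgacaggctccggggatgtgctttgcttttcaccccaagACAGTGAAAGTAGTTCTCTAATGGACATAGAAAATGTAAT
exon 16 to exon 8: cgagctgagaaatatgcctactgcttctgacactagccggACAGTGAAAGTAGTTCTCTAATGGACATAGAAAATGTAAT
exon 12 to exon 8: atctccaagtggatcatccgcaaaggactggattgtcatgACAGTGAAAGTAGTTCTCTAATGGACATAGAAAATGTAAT
exon 16 to exon 14: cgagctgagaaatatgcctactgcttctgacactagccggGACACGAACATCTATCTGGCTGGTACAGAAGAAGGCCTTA

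One circRNA carried most of the signal. The exon 8 to 13 circRNA (mm9 chr4:102732223-102745448, minus strand) held 1124 of the 1384.5 counts of the locus over the 10 libraries, or 81.2%. It spans 13226 bases of the genome and would hold 941 bases if all 6 exons and no intron were retained, which junction counts do not show. Next, with 164 counts, was the exon 8 to 16 circRNA (chr4:102720815-102745448). It spans 24634 bases, and the 9 annotated exons from its acceptor to its donor sum to 1424 bases. The acceptor of exon 8 was used by 5 of the 17 circRNAs, which held 95.1% of the locus counts. Its partners differed: the donor of exon 13 served 2 circRNAs, and that of exon 16 served 5, among them the one that starts at exon 14.

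**Figure D1:**
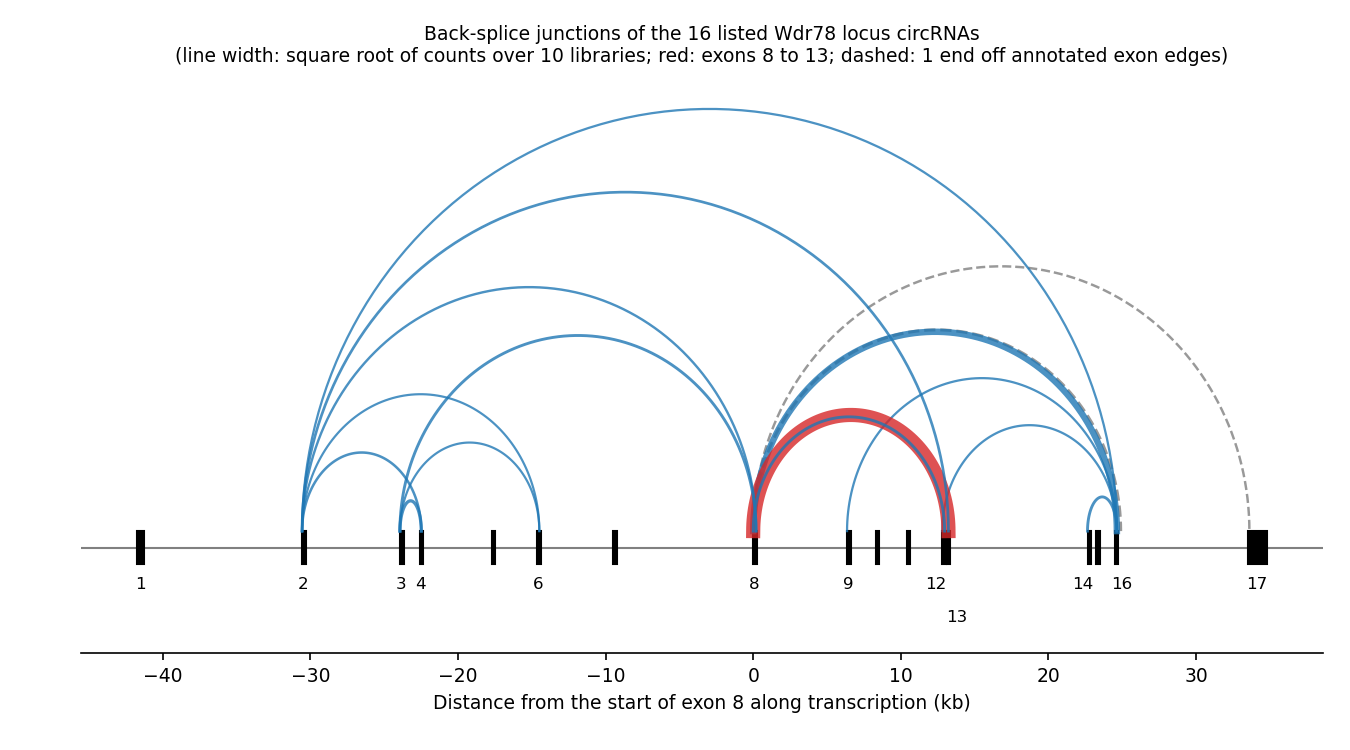
Back-splice junctions of the 16 circRNAs above 0, drawn as arcs over the 17 exons of Wdr78-203 (black boxes, distance in kb from the start of exon 8, transcription to the right); line width is the square root of the counts over the 10 libraries. The widest arc joins exons 8 and 13 (1124 counts), the next exons 8 and 16 (164 counts), and the dashed arcs are the 2 circRNAs with a donor off the annotated exon edges.

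Sites beside long introns included the most used ones and some rarely used ones. Wdr78-203 has 16 introns with a median length of 3849.5 bases, and 10 of them lie next to an acceptor or donor of a member. All of the 5 longest are among these 10. On the flanks of the exon 8 to 13 circRNA are intron 7 of 9369 bases, the third longest, and intron 13 of 9420 bases, the second longest. Those of the exon 8 to 16 circRNA are intron 7 and intron 16 of 8868 bases, the fourth longest. The acceptor of exon 2, beside intron 1 of 10705 bases, the longest, had only 21.5 counts over the 10 libraries. Those of exons 3 and 14, beside introns 2 and 13, had 31 and 10.5 counts. The donor of the rare exon 8 to 12 circRNA lies beside intron 12, at 138 bases the shortest of all. A link between intron length and use was not tested. Exon 13, whose end is the donor of the abundant circRNA, is not in every transcript. It was present in 4 of the 6 annotated transcripts that hold exon 12 and a later exon (Wdr78-202, Wdr78-203, Wdr78-205 and Wdr78-206) and absent from Wdr78-201 and Wdr78-204. It lies at chr4:103059618-103059739 in GRCm38 and is shown whole because its last base forms the junction.
exon 13: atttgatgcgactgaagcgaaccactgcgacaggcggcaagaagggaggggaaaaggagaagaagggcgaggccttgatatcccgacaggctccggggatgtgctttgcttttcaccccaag

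The exon 8 to 13 circRNA was scarce around birth and among the most abundant circRNAs of the retina at P30. Its counts were 5.5 and 0 in the E18.5 libraries, 4 and 5.5 in the P1 libraries, 12 and 6.5 in the P7 libraries, 92 and 78 in the P14 libraries, and 425.5 and 495 in the P30 libraries. Scaled to the library totals, E18.5 stood at 833 and 0 CPM, P1 at 440 and 639 CPM, P7 at 1249 and 875 CPM, P14 at 7814 and 4575 CPM, and P30 at 15140 and 17273 CPM. The libraries of P14 lay above all those of P7 and before, and those of P30 above all others, whereas the libraries of E18.5 and P1 overlapped. Its rank within a library was 296th in the E18.5 library that listed it and 570th and 360th at P1. P7 had it at 150th and 263rd place, P14 at 9th and 18th, and both P30 libraries at 3rd. At P30 only mmu_circ_0001878, with 37005 and 32539 CPM, and mmu_circ_0000723, with 31187 and 27148 CPM, were above it.

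Mean levels were 416 ± 589 CPM for E18.5, 540 ± 141 CPM for P1, 1062 ± 264 CPM for P7, 6195 ± 2290 CPM for P14 and 16206 ± 1508 CPM for P30 (SD, n = 2 for each age). In the order of these means E18.5 and P1 did not differ beyond their spread. The ratio of neighbouring means was 1.30 for P1 over E18.5, 1.97 for P7 over P1, 5.83 for P14 over P7 and 2.62 for P30 over P14. P14 over P7 was the largest of the 4. As background, mouse pups open their eyes and photoreceptor outer segments lengthen between these ages. Over the whole series the mean at P30 was 38.9 times that at E18.5 and 30.0 times that at P1. The E18.5 mean rests on 1 library of 5.5 counts and 1 listed at 0. Against the library at 0 alone, with 3 counts (421 CPM) assumed as its limit, the mean of P30 was at least 38.5-fold higher. The other E18.5 library, at 833 CPM, lay above this limit, so the fold is no bound for E18.5 as an age. Values above 0 started at 2 counts, so what a listed 0 may hide is not known.

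**Figure D2:**
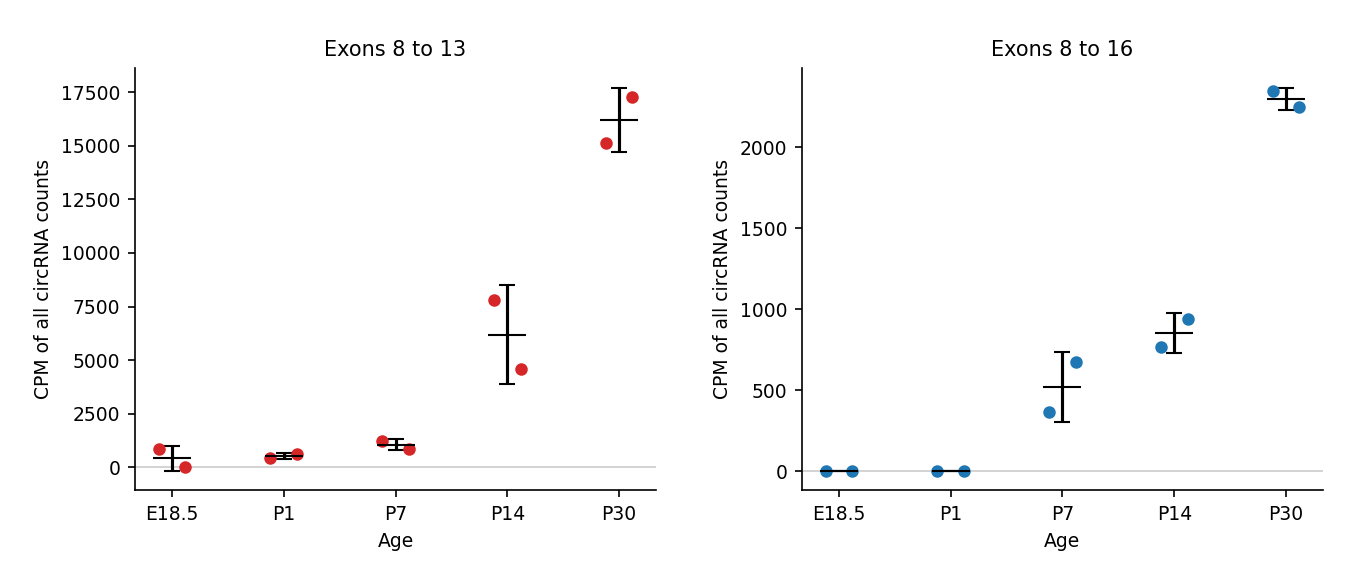
CPM of the exon 8 to 13 circRNA (left) and of the exon 8 to 16 circRNA (right) at the 5 ages; points are single libraries, horizontal lines and bars the mean and SD of the 2 libraries, and the vertical scales differ between the panels. In the left panel the means are 416, 540, 1062, 6195 and 16206 CPM from E18.5 to P30, and in the right panel the circRNA is listed at 0 at E18.5 and P1, with means of 519, 851 and 2300 CPM from P7 to P30.

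From P7 onwards the exon 8 to 16 circRNA was listed as well. It had 0 counts in all 4 libraries of E18.5 and P1, 3.5 and 5 counts in the P7 libraries, 9 and 16 in those of P14, and 66 and 64.5 in those of P30. The mean was 519 ± 219 CPM at P7, 851 ± 123 CPM at P14 and 2300 ± 69.1 CPM at P30 (SD, n = 2 each). The libraries of these 3 ages did not overlap. If 3 counts are assumed as the limit of each library at 0, its mean at P30 was at least 5.26-fold that at E18.5. On the same assumption it was at least 6.78-fold that at P1. P14 over P7 gave a ratio of 1.64 and P30 over P14 one of 2.70. The last ratio was close to the 2.62 of the exon 8 to 13 circRNA, while the one before it was 1.64 against 5.83, a difference that was not tested. Counts of the exon 8 to 13 circRNA were 3.43 and 1.30 times those of the exon 8 to 16 circRNA in the P7 libraries, 10.2 and 4.88 times in the P14 libraries, and 6.45 and 7.67 times in the P30 libraries.

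The other circRNAs of the locus were rare. Of the 17, 7 had a total of at least 10 counts, 9 had 2 to 7.5 counts in all, and 1, exon 3 to 12, was at 0 in every library. At P7 or before, none was listed other than exon 8 to 13 and exon 8 to 16. In a P14 library 7 circRNAs were above 0, and in a P30 library 15. E18.5 libraries listed 1 and 0 of them, P1 libraries 1 and 1, P7 libraries 2 and 2, P14 libraries 4 and 6, and P30 libraries 10 and 11. Of the 16, 9 were listed only at P30 and 7 in only 1 library. The matching shares over all 6365 listed circRNAs were not computed, so nothing particular to the locus is read from these numbers. P30 libraries listed 2800 and 2784 circRNAs in all, and P7 libraries 1212 and 996. In 7 of those 9 the P30 values, of at most 142 CPM, were under the lowest level that a P7 library could list (208 CPM), and in 6 under that of the P14 libraries (117 CPM), so their absence at the earlier ages was not detectable as a difference at this depth.

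Besides the exon 8 to 13 and exon 8 to 16 circRNAs, 5 had at least 10 counts. One, exon 8 to 12 (chr4:102732483-102745448), has the acceptor of the abundant one and its donor at the end of exon 12 in place of exon 13. It had 4.5 and 0 counts at P14 and 2.5 and 3.5 at P30. The exon 14 to 16 circRNA (chr4:102720815-102722802), whose acceptor is the most 3′ of the locus, had 2.5 and 3.5 counts at P14 and 0 and 4.5 at P30. The exon 3 to 8 circRNA (chr4:102745254-102769380), which ends with exon 8, the first exon of the abundant one, had 0 and 4 counts at P14 and 0 and 6.5 at P30. None of these 3 was above 0 in all 4 libraries of P14 and P30, which held only for the exon 8 to 13 and exon 8 to 16 circRNAs.

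The exon 3 to 4 circRNA (chr4:102767934-102769380) stood apart, with 18.5 counts (658 CPM) in P30 replicate 2 and 0 in P30 replicate 3 and every other library. It was the third of the locus by total counts, and this rests on that library alone. Next by total counts was a circRNA of 24893 bases (chr4:102720556-102745448) with 4.5 and 9 counts at P30 and 0 before. It is 1 of 2 whose span equalled no exon pair. Both start at exon 8. By its length, the donor of the 24893-base circRNA falls 259 bases into intron 16, beyond the end of exon 16. The donor of the other, of 33612 bases (chr4:102711837-102745448, 2.5 and 2 counts at P30), falls 110 bases into exon 17, the last exon.

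**Figure D3:**
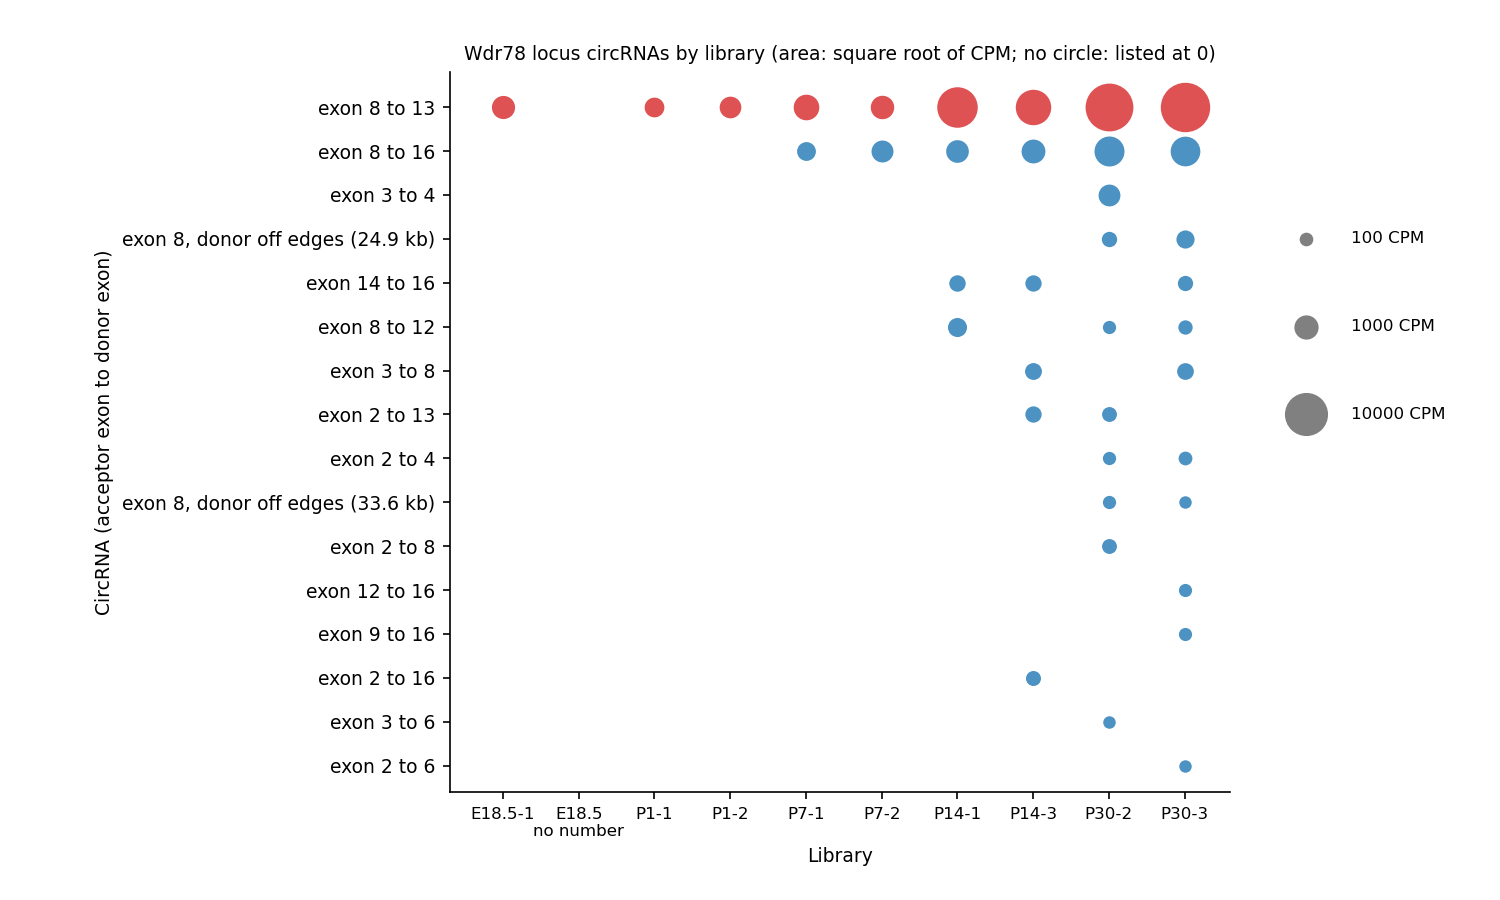
CPM of the 16 listed circRNAs (rows, by total counts) in the 10 libraries (columns, by age); the area of a circle grows with the square root of CPM, and no circle means a value of 0. The exon 8 to 13 circRNA is present in 9 libraries, the exon 8 to 16 circRNA in the 6 from P7 on, and the number of circles per library is highest at P30 with 10 and 11.

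All members together made up 0.0416 ± 0.0589% of the circRNA counts for E18.5, 0.0540 ± 0.0141% for P1, 0.158 ± 0.00453% for P7, 0.774 ± 0.203% for P14 and 1.98 ± 0.130% for P30 (SD, n = 2 each). Summed over the members, P7 libraries had 15.5 and 11.5 counts, P14 libraries 108 and 107.5, and P30 libraries 532 and 595. By acceptor, exon 8 took 199.5 counts at P14 and 1075 at P30, exon 3 took 4 and 27, and exon 2 took 6 and 15.5. By donor, exon 13 took 173.5 counts at P14 and 924.5 at P30, and exon 16 took 33.5 and 140. The same acceptor and the same donor led at P14 and at P30. Most of their counts were those of the exon 8 to 13 circRNA, so this lead restates its abundance.

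The share of the exon 8 to 13 circRNA among the locus counts was compared with age over the 6 libraries with at least 10 locus counts. This share is not free of the choices made. The circRNA was picked by its summed counts, 425.5 and 495 of 1124 from the P30 libraries, and the libraries by their locus counts. The relation with age is therefore a description of these libraries. The share was 77.4% (95% Wilson interval 52.6 to 91.4) and 56.5% (30.0 to 79.7) at P7. P14 libraries had 85.2% (77.3 to 90.7) and 72.6% (63.5 to 80.1), and P30 libraries 80.0% (76.4 to 83.2) and 83.2% (80.0 to 86.0). The intervals cover counting error only. The means were 67.0 ± 14.8% at P7, 78.9 ± 8.93% at P14 and 81.6 ± 2.27% at P30 (SD, n = 2 each), and the range of P14 overlapped those of P7 and P30, which did not overlap each other. Pearson's r of the share with the rank of age was 0.63 (exact permutation p = 0.2), and Spearman's rho was 0.60 (exact permutation p = 0.267). Both were two-sided over n = 6 libraries, with an adjusted p = 0.267 for both measures of this 1 relation. The smallest p possible was 0.0222. Libraries were permuted as independent units, which the labels do not show, so no conclusion on a change of the share is drawn. Both ages at the ends are equally far from the median, and r was 0.28 without the P7 libraries and 0.57 without the P30 libraries. The 3 libraries before P7 with a value above 0 listed no other member and had 4 to 5.5 locus counts each. When these were included r was −0.51 over 9 libraries (exact permutation p = 0.158).

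**Figure D4:**
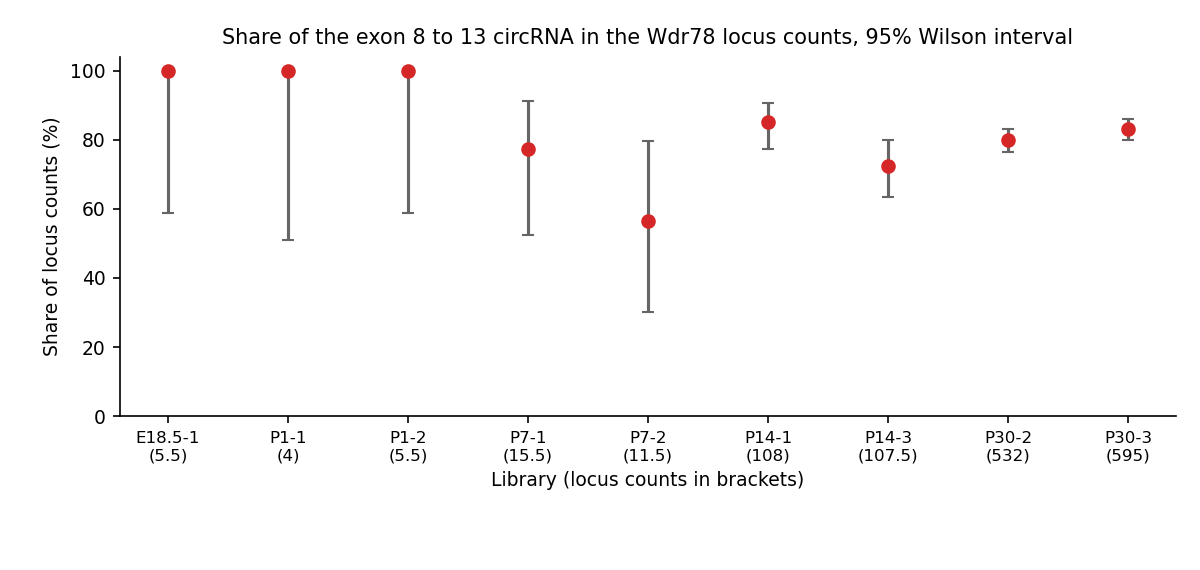
Share of the exon 8 to 13 circRNA in the locus counts (%) in the 9 libraries that list a member, with 95% Wilson intervals (bars) and the locus counts in brackets. The shares are 100% before P7 on at most 5.5 counts, and lie between 56.5% and 85.2% in the 6 libraries from P7 on.

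In the edgeR fit over all circRNAs, 327 passed the filter on low counts, and of the 17 members only the exon 8 to 13 and the exon 8 to 16 circRNA did. Since the locus was selected on its values over the ages, the calls are set beside the background and nothing is read from them. Across the 5 ages 36.7% of the circRNAs tested were called at an adjusted p under 0.05, and both members were. For P30 against E18.5, 24.8% were called higher at P30, again with both members. For P14 against P7 the background was 4.89% and for P30 against P14 it was 2.14%, each with the exon 8 to 13 circRNA called and the exon 8 to 16 circRNA not called. The background itself depends on the scaling, which here means library size as well as factors. The main fit applied TMM factors to library sizes summed over the 327 circRNAs. The fit with library totals used the sums of all listed counts and no factors. TMM factors gave 81 circRNAs called higher and 34 lower for P30 against E18.5, 16 and 2 for P14 against P7, and 7 and 2 for P30 against P14, whereas library totals gave 50 and 66, 8 and 14, and 1 and 7. The call for P30 against P14 was lost with library totals in place of TMM factors, under a wider filter (496 circRNAs tested, each with at least 10 counts in both libraries of some age), and without any 1 of P1 replicate 1, P7 replicate 2, P14 replicate 1, P14 replicate 3, P30 replicate 2 or P30 replicate 3. That for P14 against P7 was lost without P7 replicate 2. Fits with a library left out also passed more circRNAs through the filter, 483 to 537 against 327. The fit with a replicate block, which lacks the unnumbered E18.5 library, tested 523. Whether the missing library or the larger number tested lost a call was not tested. With the replicate number as a block, a single member remained called across the 5 ages and for P30 against E18.5, the exon 8 to 13 circRNA, and none for either of the later steps.

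Fitted log2 fold changes are given ± an approximate standard error. It was derived as the absolute log2 fold change over the square root of the F statistic of its test. For the exon 8 to 13 circRNA the values began with 0.49 ± 0.85 for P1 against E18.5. P7 against P1 gave 0.86 ± 0.68, P14 against P7 gave 3.00 ± 0.48 and P30 against P14 gave 1.75 ± 0.36. For P30 against E18.5 the value was 6.09 ± 0.55, and 37 of the 327 circRNAs had a larger one. The scaling, library size and factors together, moved the median over the 327 circRNAs. For P30 against E18.5 it was 0.31 in the main fit with TMM factors and −0.60 with library totals. P14 against P7 gave 0.13 and −0.32, and P30 against P14 gave 0.01 and −0.29. With totals the exon 8 to 13 circRNA stood at 5.17, 2.54 and 1.40 in these 3 comparisons, above the median under either scaling. The sign of the first step depended on the E18.5 libraries. P1 against E18.5 was −0.43 without the E18.5 library at 0 and 5.60 without E18.5 replicate 1, after which E18.5 is at 0 and the fitted value is no measure of size. P30 against E18.5 was 5.19 and 11.22 in these fits. Fitted values of the exon 8 to 16 circRNA were 1.15 ± 0.70 in P14 against P7 and 1.73 ± 0.58 in P30 against P14.

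The circRNAs outside the locus that were most like the exon 8 to 13 circRNA were ranked by Pearson's r of log2(CPM + 1) over the 10 libraries, among the 325 others that passed the filter. The first was mmu_circ_0000596 with r = 0.96, the second mmu_circ_0000097 with r = 0.93. Next came circRNAs of the minus strand at chr9:83316629-83322555 (r = 0.89), chr9:55654819-55707725 (r = 0.89) and chr12:100030233-100032829 (r = 0.89). All 5 were at 0 in the same E18.5 library in which the exon 8 to 13 circRNA is at 0. Without that library, a comparison added after the data were seen, r was 0.82, 0.72, 0.31, 0.31 and 0.30 in this order and their ranks were 14, 29, 96, 98 and 99. The highest r were then those of a circRNA listed by position (0.97), of mmu_circ_0001692 (0.96) and of mmu_circ_0000057 (0.96), which had been 0.68, 0.71 and 0.66 over the 10 libraries. Which circRNAs rank as most like it therefore rests on 1 library. The points share their libraries and depths, and no p is given. The exon 8 to 13 and exon 8 to 16 circRNAs, which share the acceptor of exon 8, had r = 0.70 with each other.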

How the data were processed

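Estimated counts of circRNAs, with no normalization, were deposited by the authors in 1 table with a column per library. The submitters' processing notes name Trimmomatic and mm9, and the circRNA caller is not given in the sources used here. Values are multiples of 0.5, and none lies between 0 and 2. One E18.5 column has a number that no E18.5 label carries and was taken as an unnumbered E18.5 replicate. The members and lists were chosen with earlier results of these data known.

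For the fit, the values were rounded to whole numbers and low ones removed with filterByExpr (minimum count 10, minimum total 15, grouped by age). TMM factors lay between 0.788 and 1.17 and were applied to library sizes summed over the circRNAs that passed the filter. A model of the 5 ages was fitted to the 10 libraries with edgeR 4.0.16 (glmQLFit, glmQLFTest; R 4.3.3), which left 5 residual degrees of freedom and a common dispersion of 0.125. Calls used a Benjamini-Hochberg adjusted p under 0.05 over all circRNAs tested. Every member with at least 10 counts in total was named with its values. CPM refer to all listed circRNA counts of a library. Starts in the table count from 0 and are printed counting from 1 for members, and as listed for other circRNAs. Positions of members are mm9, and those of exons and sequences are GRCm38.

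The alternatives run were library totals and relative log expression factors as scaling, 2 other filters, DESeq2 1.42.0, a replicate block, only the libraries compared, each library left out, and other definitions of the share. Python 3.11.15, numpy 2.4.6, pandas 2.3.3, scipy 1.17.1 and matplotlib 3.10.9 were used.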

Additional observations from a re-analysis of the deposited data

How the results depend on the processing

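Counts of calls differed with the filter and with a library left out. Leaving out a library also changed what the filter passed, with 483 to 537 circRNAs tested against 327. The effect of the missing library by itself was not tested. Across the 5 ages 120 circRNAs were called, against 182 under the filter of 10 counts in every library of an age, and 56 to 150 with 1 library left out. For P30 against E18.5, 115 were called, against 212 under that filter and 65 to 133 with 1 library left out. Block values are given for the libraries whose number is in a label. The E18.5 column taken as unnumbered was left out by this choice, so only E18.5 replicate 1 remained for that age. The block fit tested 523 circRNAs against 327 and left fewer residual degrees of freedom than the main fit. The effect of the number by itself was not tested. Numbers recur in both libraries only at P1 and P7, where the differences between numbers 1 and 2 had r = 0.0248, so a pairing is not shown. With the replicate block 24 circRNAs were called across the 5 ages and 28 for P30 against E18.5, members called numbered 1 and 1 in these comparisons, and 0 in P14 against P7 and in P30 against P14. P1 against E18.5 was −0.25 for the exon 8 to 13 circRNA with the block.

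Calls of members in P30 against P14 numbered 1, and 0 with library totals or the filter of 10 counts in every library of an age. With 1 library left out they numbered 0 to 1 there and in P14 against P7. Leaving out 1 library gave log2 fold changes of the exon 8 to 13 circRNA of 5.19 to 11.22 for P30 against E18.5, −0.43 to 5.60 for P1 against E18.5, 0.61 to 1.40 for P7 against P1, 2.65 to 3.25 for P14 against P7, and 1.46 to 2.08 for P30 against P14. Library totals gave 2.54 in P14 against P7 and 1.40 in P30 against P14. The correlation of the share with age was 0.37 to 0.80 with 1 library left out and −0.51 with no minimum of locus counts, where the libraries added hold at most 5.5 counts. A minimum of 20 locus counts leaves the 4 libraries of P14 and P30, in which r was 0.28, too few for a test. The cause of these shifts was not tested. Values up to P7 rest on at most 15.5 locus counts per library, which limits every statement on the early ages.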
